A study of Zea mays with 8 samples.

Results

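RNA levels were compared between hda108 and wild-type (WT) maize (Zea mays) in anthers, the pollen-forming organs of the tassel, at the mitotic stage. WT plants were set against plants of genotype hda108/hda108, which carry a mutated HDA108, a histone deacetylase gene. All plants grew in the field, and no other allele or treatment is given for either genotype. Each genotype had 2 mitotic-stage libraries of total RNA, and each library pooled anthers from 3 tassels. The position of the mutation in the gene, the number of independent alleles and the genetic background are not given in the sources used here. Values are FPKM, sequenced fragments per transcript length and library size, and the deposited columns hold 1 value per gene and group. The column headed homo was taken as hda108, since hda108/hda108 is the only mutant genotype in the labels. All genes with at least 1 FPKM in either mitotic column were compared, 22708 of 39604. At that limit, GRMZM2G417594 lay just inside with 0.558 FPKM in WT against 1.0004 in hda108. GRMZM5G836746 lay just outside, listed at 0 in WT and with 0.999998 FPKM in hda108.

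Histone deacetylases remove acetyl groups from histone tails, and deacetylated chromatin is generally less accessible to transcription. In the anther, haploid microspores left by meiosis divide by mitosis and mature into pollen, fed by the tapetum, the innermost wall layer. Maturing pollen builds up RNA for wall loosening, the cytoskeleton and tube growth. The labels do not say which division the mitotic stage covers. A whole-anther sample mixes microspores or pollen with wall tissue. Fewer cells of a type and less RNA per cell therefore cannot be told apart in any value below.

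Differences are log2(FPKM + 1) in hda108 minus WT, and folds are ratios of the FPKM themselves. Where a gene is given with a pair of levels, WT comes first. A gene was called higher or lower when this difference reached 2, a 4-fold change for an abundant gene. With 1 value per group there is no spread between replicates and no test, so the words higher and lower describe these columns alone. The FPKM of all genes summed to 1284185 in WT and 505427 in hda108, a ratio of 2.54. The median difference of all tested genes was -0.04 as deposited and 1.11 after each column was rescaled to the same sum. Each group is therefore read against these medians, and calls that held under both scalings are marked. Since rescaling lifts hda108 against WT, each gene called higher as deposited is higher after rescaling too.

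As deposited, 371 genes were higher in hda108, 1.63% of those tested, and 1979 were lower, 8.71%. After rescaling, 3343 were higher, 14.7%, and 601 were lower, 2.65%. The 371 higher and 601 lower genes were called in the same direction under both scalings. Of all tested genes, 66.5% differed by less than 1 log2 as deposited. The higher genes had a low median in WT, 1.08 FPKM, and 13.1 FPKM in hda108. The lower genes under both scalings had medians of 123.2 FPKM in WT against 7.31 in hda108. Both sets covered short loci, with median spans of 1897 and 1801 bases, against 3544 bases for all tested genes. Only 1993 tested genes carried an informative name, among them 60 of the higher and 39 of the lower genes under both scalings.

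**Figure D1:**
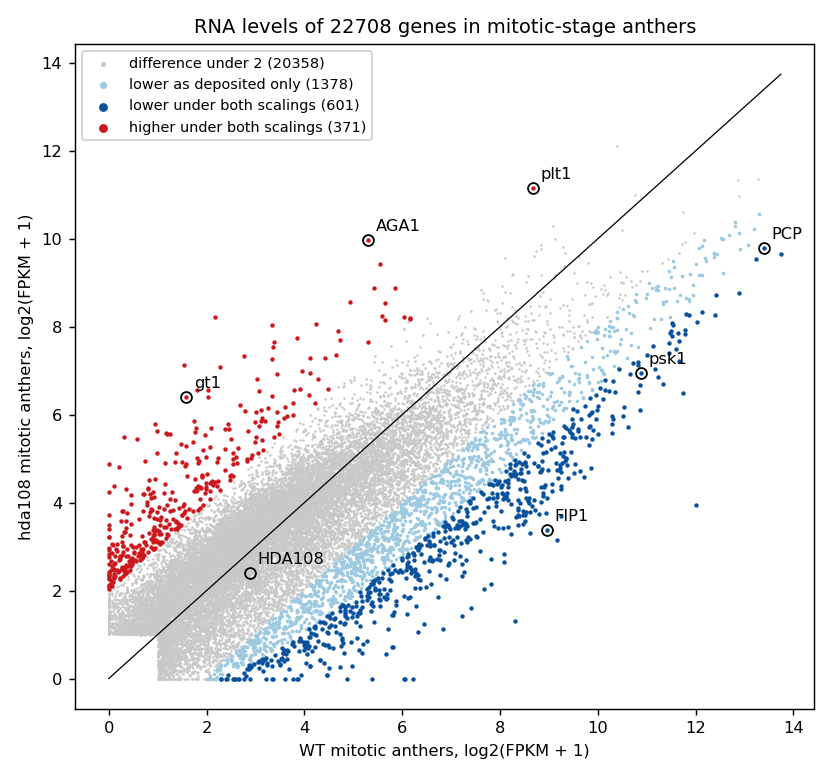
Levels of 22708 genes as log2(FPKM + 1) in WT (horizontal) and hda108 (vertical) mitotic anthers, 1 point per gene, with the line of equality and circles around 7 named genes. Genes called lower lie mostly at high WT levels, and the 371 higher genes mostly at low WT levels.

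Anther identity of the columns was checked with marker genes. The MADS-box gene sts1 (also zmm16), a regulator of stamen identity, had 888 FPKM in WT against 702 in hda108. Another MADS-box gene, MADS18, had 944 and 372 FPKM, and zmm6 551 and 548 FPKM. These 3 are examples chosen after their values were seen, and other MADS-box genes differed more. The zmm2 gene GRMZM2G316366 had 35.3 and 2.42 FPKM, ZAG5 7.48 and 1.09 FPKM, and MADS7 0.646 and 6.06 FPKM. The anther markers set beforehand were the tapetum and pollen lists, described below, where for example ms23 had 23.7 and 3.004 FPKM. Seed storage markers were near 0: over 6 matched genes the highest level was 0.728 FPKM in WT against 0.236 in hda108. Of the matched root markers, rtcs1 was listed at 0 in both columns, whereas rth3 had 21.4 and 14.2 FPKM. The pollen RNAs described below were among the most abundant in WT. Among these seed and root markers rth3 was thus the exception. Photosynthesis genes, the marker of green tissue, are described below.

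HDA108 itself (GRMZM2G136067, chromosome 4, 65983217 to 65988818, B73 RefGen_v3) had 6.43 FPKM in WT against 4.30 in hda108. Its difference of -0.49 turned to 0.66 after rescaling, below the 1.11 of all genes. RNA of the mutated gene was thus not absent from the mutant column. Of the 9 histone deacetylase genes tested, HDA108 was the only one below WT, and 0 were called as deposited. After rescaling 4 of the 9 were called higher, against 14.7% of all genes. The list median was 0.70 as deposited and 1.97 after rescaling.

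Chromatin genes other than the deacetylases were grouped in several lists. The 3 histone acetyltransferase genes had a median of -0.17, or 1.11 after rescaling, and gcn5 among them had 15.5 and 12.7 FPKM. Of 35 IDs of chromatin remodelling and assembly factors, which stand for 31 genes, 30 were above WT and 0 were called, with a median of 0.43, or 1.70 after rescaling. The high mobility group gene MNB1B had 305 FPKM in WT against 587 in hda108, and mbd123, of the methyl-CpG-binding domain family, 7.28 and 28.0 FPKM. Histone methylation genes had a median of 0.59, with 9 of 10 above WT and mez1, an Enhancer of zeste homologue, below it at 12.4 and 6.53 FPKM. Among 12 IDs of DNA methylation and small RNA genes the median was 0.68. The IDs GRMZM2G024466, GRMZM2G050882 and GRMZM2G160473 share the name dcl4 and lie close together on chromosome 10. They had the largest positive differences of the list, 1.82, 1.34 and 1.27. Below WT were mop1, the RNA-dependent RNA polymerase of paramutation, at 12.01 and 4.77 FPKM, and rmr2, also required to maintain paramutation, at 46.0 and 17.8 FPKM.

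Levels of 9 linker and core histone genes were tested. Linker histones bind the DNA between nucleosomes, and core histones form the nucleosome itself. The linker gene his1a (hon102, GRMZM2G401308) had 24.6 FPKM in WT against 97.3 in hda108, hon110 (GRMZM2G164020) 8.82 and 32.8 FPKM, and hon101 (GRMZM2G080274) 25.2 and 56.0 FPKM. H1, the remaining linker gene, had 11.1 and 11.9 FPKM. The histone H4 genes GRMZM2G149178 and GRMZM2G181153 had 19.1 and 43.8 FPKM in WT against 5.35 and 14.8 FPKM in hda108. The H2B gene his2b5 had 6.41 and 1.75 FPKM. None of the 9 passed the 4-fold rule as deposited. After rescaling his1a, hon110 and hon101 were called higher, at 3.26, 3.07 and 2.44, and the H4 genes and his2b5 stayed below WT, at -0.46, -0.21 and -0.43.

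Defence genes had the highest median of the lists with at least 5 tested genes. Of 28 tested, 12 were higher (1.63% of all genes were) and 0 lower, and all 12 are counted under both scalings. The list median was 1.35, or 2.35 after rescaling, and 2.03 in post-meiotic anthers, where 14 members were called higher. Its members made up 0.0461% of all FPKM in WT against 0.354% in hda108, a comparison that no scaling of the columns alters. Its members were chosen with earlier results of these data known, so its direction is no independent evidence.

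The ribosome-inactivating protein gene rip2 (RIP, GRMZM2G119705, chromosome 7, 162849639 to 162851038) stood first among them, with 3.84 FPKM in WT against 134 in hda108, 35.0-fold. PR-5, of the thaumatin-like pathogenesis-related proteins, had 0.0841 and 19.8 FPKM, and BX14, of benzoxazinoid synthesis, 2.38 and 47.8 FPKM. The beta-glucanase gene glucA (Gns1), whose product cuts wall glucans, had 5.39 and 73.5 FPKM. wip1, a wound-induced proteinase inhibitor, had 42.1 and 473 FPKM. Chitinase genes, which degrade fungal walls, followed: chiA had 49.0 and 370 FPKM, 7.56-fold, and chn1 (GRMZM2G453805) 25.4 and 208 FPKM. Below WT was, for example, bx8, a benzoxazinoid glucosyltransferase gene, at 39.0 and 13.3 FPKM.

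Lipoxygenase genes, whose enzymes oxidize fatty acids for jasmonate and other oxylipins, split by member. On the higher side lox1 (GRMZM2G156861) had 2.46 FPKM in WT against 51.2 in hda108, lox10 (GRMZM2G015419) 2.93 and 45.7 FPKM, and lox6 2.74 and 23.3 FPKM. Genes named for later jasmonate steps were also higher: opr6, of the oxophytodienoate reductases, had 0.183 and 10.98 FPKM, and aos1, allene oxide synthase, 4.61 and 22.0 FPKM. Lower as deposited were lox4 at 112 and 13.9 FPKM, lox12 at 7.48 and 0.801 FPKM, and lox5 at 165 and 38.2 FPKM. Of 29 tested members 5 were higher and 3 lower, beside 1.63% and 8.71% of all tested genes. The lower share was thus near that of all genes. The list median was -0.25. After rescaling the 3 were no longer called, and the median was 0.92.

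Developmental regulators were few among the higher genes. gt1, grassy tillers1, a homeodomain gene that represses tiller and carpel growth (GRMZM2G005624, chromosome 1, 23240103 to 23249045), had 2.01 FPKM in WT against 83.4 in hda108, 41.5-fold. It was the one call among the 29 tested genes of the homeodomain list, whose median was 0.16. wox9A, a homeodomain gene placed in the inflorescence and meristem list, had 7.40 and 0.555 FPKM and was called lower as deposited, but not after rescaling, at -1.69. bZIP113 went from 0.278 to 18.8 FPKM and bHLH123 from 0.219 to 13.1 FPKM, both transcription factors named by family. The MADS-box gene MADS7 had 0.646 and 6.06 FPKM, and RR6, a cytokinin response regulator, 0.453 and 5.48 FPKM. All 5 were at or under 2.01 FPKM in WT, so their folds rest on low values.

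Further higher genes encoded enzymes, transporters and stress proteins. AGA1, an alkaline alpha-galactosidase gene (GRMZM2G340656, chromosome 7, 19063720 to 19101243), had 38.5 FPKM in WT against 1006 in hda108, 26.1-fold, and its rank among all genes in hda108 was 22. The gene listed as kin1 (GRMZM2G158394) had 46.0 and 692 FPKM; it was matched by symbol alone and need not be a kinesin. plt1, a phospholipid transfer protein gene, had 407 and 2288 FPKM and was the fifth most abundant RNA of the mutant column. dhn1 (rab17), a dehydrin of water stress, had 1.99 and 38.2 FPKM, and GLN6, a glutamine synthetase gene, 1.596 and 33.7 FPKM. The glutathione transferase genes GST39 and gst23 had 0.208 and 12.7 FPKM in WT against 12.98 and 63.0 FPKM in hda108. They were the 2 higher genes among 37 of glutathione transferases and oxidative stress, of which 1 was lower. Of all tested genes 1.63% were higher and 8.71% lower. The list median was -0.53, or 0.66 after rescaling. The one lower gene, gst30, had 105.6 and 17.0 FPKM and lost its call after rescaling, at -1.26. incw1, a cell wall invertase gene, had 1.94 and 12.98 FPKM.

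Ion, nutrient and water transport genes were called in both directions, 5 higher and 5 lower of 47, with a median of -0.07, or 1.12 after rescaling. Among all tested genes 1.63% were higher and 8.71% lower. The potassium transporter HAK5 (GRMZM2G084779, chromosome 3, 155829889 to 155835177) went from 0.987 to 48.4 FPKM, 49.1-fold, and HAK1 from 70.1 to 291 FPKM. pht1, a phosphate transporter gene, had 1.88 and 14.1 FPKM, while pht7 of the same family had 1130 and 93.0 FPKM. ysl17, of the yellow stripe-like metal transporters, had 127 and 7.63 FPKM. Aquaporins also split: PIP2-4 had 0.396 and 5.04 FPKM, whereas PIP2-6 had 17.7 and 0.649 FPKM, por2 (TIP2-3) 34.8 and 2.68 FPKM, and TIP1-2 5338 and 802 FPKM. TIP1-2 was no longer called after rescaling, at -1.39, and the other 4 lower genes were.

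**Figure D2:**
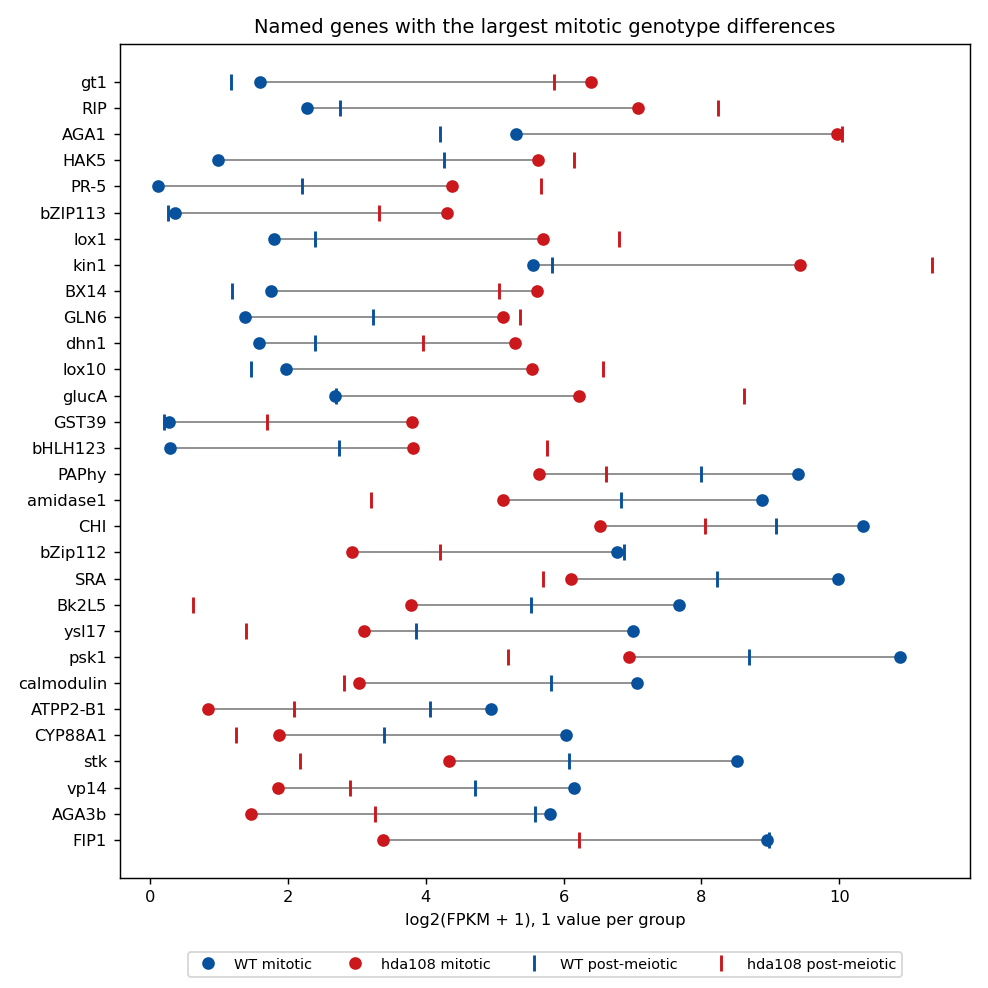
Levels as log2(FPKM + 1) of the named genes with the 15 highest and the 15 lowest differences that were called under both scalings. Filled circles are the mitotic columns joined by a line, and ticks the post-meiotic columns, WT in blue and hda108 in red. All 30 genes lie on the same side of WT in post-meiotic anthers as deposited.

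Pollen genes led the lower side as deposited. Of 31 tested genes of pollen maturation or the pollen tube, 12 were lower (8.71% of all genes were) and 0 higher, and 5 were lower under both scalings. Their median was -1.73, or -0.39 after rescaling against 1.11 for all genes, and -2.01 in post-meiotic anthers. Its members made up 3.53% of all FPKM in WT against 1.41% in hda108. Lower calls were commoner among abundant genes of any kind, 41.4% at means of 100 to 1000 FPKM and 79.8% at 1000 FPKM or more. Under both scalings these shares were 17.1% and 27.2%. Abundant members of this list and of the later lists are to be read beside them. Whether the list differs from genes of like abundance was not tested. PCP (GRMZM2G072448, chromosome 1, 75210847 to 75212440), the second most abundant RNA of WT mitotic anthers, had 10803 FPKM in WT against 882 in hda108, 12.2-fold lower.

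Several pollen genes have known products. stk1 (stk, GRMZM2G165433), a serine/threonine kinase gene, had 365 FPKM in WT against 19.1 in hda108, 19.1-fold lower. psk1 (GRMZM2G044194), of the phytosulfokine precursor family of peptide growth factors, had 1893 and 122 FPKM. The pectin methylesterase gene pme1 (C5, GRMZM2G125356) had 2994 and 264 FPKM. These 3 and PCP are among the 5 members lower under both scalings. mgs1 had 8598 and 933 FPKM and MST2, a monosaccharide transporter gene, 827 and 82.3 FPKM, both short of the rule after rescaling at -1.86 and -1.98. The member farthest above WT was CDPK2, a calcium-dependent kinase gene, at 37.7 and 90.8 FPKM and not called.

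Tubulins form microtubules, and their genes were gathered after values of the cell cycle list were seen. Of 11 tested tubulin genes 4 were called lower and 0 higher, beside 8.71% and 1.63% of all tested genes. The median of the 11 was -1.72. All 4 lower genes had means of 100 to 1000 FPKM over both columns, where 41.4% of all tested genes were lower. The 9 alpha- and beta-tubulin genes were below WT as deposited, and both gamma-tubulin genes, GRMZM2G085970 and GRMZM2G073888, were above it, at 1.56 and 4.99 FPKM in WT against 2.05 and 6.56 FPKM in hda108. tub3 had 539 FPKM in WT against 72.0 in hda108, tua6 254 and 37.9 FPKM, tub4 394 and 66.4 FPKM, and tua4 1201 and 257 FPKM. After rescaling none of the 11 was called, 8 stayed below WT and tub6 turned to 0.86. ABP2, an actin-depolymerizing factor gene, had 994 and 231 FPKM, and the profilin gene prf2 1169 and 297 FPKM. CaM1, a calmodulin gene, had 541 and 47.6 FPKM, and another, GRMZM2G149923, 132 and 7.18 FPKM, both lower under both scalings.

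Among wall genes, expansins, which loosen cell walls, had 4 of 12 members lower and 0 higher, beside 8.71% and 1.63% of all tested genes, with a median of -1.53, or -0.53 after rescaling. The pollen beta-expansins EXPB1B, EXPB10 and EXPB11 had 3959, 2643 and 1343 FPKM in WT against 493, 474 and 243 FPKM in hda108. After rescaling these 3 were no longer called. Among all tested genes 41.4% were lower at means of 100 to 1000 FPKM and 79.8% at 1000 FPKM or more. EXPB1, a further pollen beta-expansin gene, had 1133 and 457 FPKM and was not called, at 0.03 after rescaling. expA4, an alpha-expansin gene, had 68.6 and 5.89 FPKM and kept its call. Bk2L5, of the brittle stalk2-like family, had 204 and 12.8 FPKM, whereas the cellulose synthase gene CesA-7 had 95.3 and 81.3 FPKM.

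Of 13 flavonoid genes 3 were called lower and 0 higher, beside 8.71% and 1.63% of all tested genes, and their median of -1.59 was -0.38 after rescaling. The chalcone isomerase gene chi1 (CHI, GRMZM2G155329) had 1297 FPKM in WT against 90.9 in hda108, and bronze1 (bronze), a flavonoid glucosyltransferase gene, 35.2 and 2.11 FPKM. Dihydroflavonol reductase gene A1 had 48.8 and 8.34 FPKM. The regulator pac1 (GRMZM2G058432) and the anthocyanidin synthase gene a2 had nearly equal levels, 25.9 and 26.5 FPKM, and 28.0 and 29.5 FPKM.

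Sugar genes had 9 of 20 members lower and 2 higher, beside 8.71% and 1.63% of all tested genes. Their median was -1.49, or -0.30 after rescaling. Of all tested genes with means of 100 to 1000 FPKM, 41.4% were lower. The vacuolar invertase genes IVR1 and ivr2 had 364 and 166 FPKM in WT against 42.2 and 23.1 FPKM in hda108. The sucrose phosphate synthase gene SPS had 82.3 and 14.8 FPKM. Alpha-galactosidase genes ran against AGA1: AGA3b had 54.6 and 1.74 FPKM, AGA3a 15.5 and 0.690 FPKM, and AGA2 102 and 11.3 FPKM. gols2, a galactinol synthase gene, had 62.8 and 5.45 FPKM. Of the 9 lower genes only AGA3b, AGA3a and gols2 were lower under both scalings. Starch synthesis genes had 0 of 16 called and a median of -0.10, with waxy1 (GBSS1), which makes amylose, at 628 and 183 FPKM.

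Auxin genes had 8 of 37 lower and 0 higher, beside 8.71% and 1.63% of all tested genes, with a median of -0.75, or 0.23 after rescaling. AUX32 had 124 FPKM in WT against 8.30 in hda108, and AUX22, the gene bif1 of the Aux/IAA repressors, 120 and 10.3 FPKM. The auxin response factor gene ARF21 had 71.7 and 4.64 FPKM. These 3 were lower under both scalings. GH3, of the enzymes that conjugate auxin, had 1224 and 281 FPKM. AUX10 went the other way, at 37.2 and 112 FPKM, short of the rule.

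Genes of other hormone pathways were called in both directions. vp14 (GRMZM2G014392, chromosome 1, 250953387 to 250956063), which cleaves carotenoids for abscisic acid, had 70.1 FPKM in WT against 2.63 in hda108. The beta-carotene hydroxylase gene BCH2 had 146 and 15.1 FPKM, and the dehydrin gene dhn2 (dehydrin3) 3025 and 471 FPKM. Of 12 abscisic acid and carotenoid genes 4 were lower and 1, dhn1, higher, beside 8.71% and 1.63% of all tested genes. Their median was -0.82, or 0.32 after rescaling. CYP88A1 (dwarf3, GRMZM2G093195) of gibberellin synthesis had 64.2 and 2.67 FPKM and was the one call among 11 gibberellin and brassinosteroid genes, a share near the 8.71% of all tested genes called lower. Dwf4, of brassinosteroid synthesis, and an1, of gibberellin synthesis, were above WT, at 27.95 and 5.06 FPKM in WT against 49.1 and 6.399 FPKM in hda108. The DELLA repressor genes D8 and d9 had 61.6 and 41.7 FPKM in WT against 21.9 and 16.0 FPKM in hda108, short of the rule. Of 31 cytokinin and ethylene genes 3 were lower and 1, RR6, higher, near the 8.71% and 1.63% of all tested genes. Their median was 0.33, or 1.39 after rescaling. ACS6 and acs7, ethylene synthesis genes, had 25.5 and 55.7 FPKM in WT against 2.08 and 9.89 FPKM in hda108. CYP88A1, vp14 and ACS6 kept their calls after rescaling, whereas BCH2, dhn2 and acs7 did not.

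Named lower genes outside these lists included FIP1, first by size (GRMZM2G046782, chromosome 10, 132115901 to 132117377), with 497 FPKM in WT against 9.37 in hda108, 53.0-fold lower. The phytase-type phosphatase gene PAPhy had 678 and 49.2 FPKM, amidase1 472 and 33.8 FPKM, SRA 1007 and 67.6 FPKM, and ATPP2-B1 29.9 and 0.787 FPKM. OFP22 and OFP8, of the ovate family of growth repressors, had 62.5 and 52.0 FPKM in WT against 4.39 and 3.79 FPKM in hda108.

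Calls in the transcription factor families stood beside 8.71% lower and 1.63% higher among all tested genes. Lower and higher calls were 4 and 0 of 29 AP2 and ERF genes, 2 and 0 of 31 MYB genes, 2 and 0 of 15 NAC genes, and 2 and 0 of 14 WRKY genes. Of 32 bZIP genes 2 were lower and 1 higher, and of 26 bHLH genes 1 and 1. EREB156 had 84.1 FPKM in WT against 10.3 in hda108, NAC20 168 and 22.99 FPKM, and MYBR58 61.3 and 11.2 FPKM. bZip112, at 109 and 6.64 FPKM, was the single bZIP gene lower under both scalings. The family medians ran from -0.55 for NAC to 0.35 for WRKY genes, all above 0 after rescaling. ms23, a bHLH regulator of tapetum identity, had 23.7 and 3.004 FPKM, and ms26, a cytochrome P450 gene of the pollen wall, 4.03 and 1.08 FPKM. They belong to 6 tapetum and pollen wall genes with a median of -1.31, or -0.20 after rescaling, of which ms23 was called as deposited.

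MADS-box genes, which specify floral organs, showed opposite members around a median of -0.04. The zmm2 gene GRMZM2G316366 had 35.3 FPKM in WT against 2.42 in hda108, lower under both scalings, and the zmm2 gene GRMZM2G492156 21.7 and 5.57 FPKM. The table's AGAMOUS (GRMZM2G359952) had 199 and 436 FPKM.

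Housekeeping and organelle lists had few calls. Of 30 cytosolic ribosomal protein genes and 27 photosynthesis genes, a marker of green tissue, 0 were called, with medians of -0.31 and 0.10. The photosynthesis list summed to 0.158% of the FPKM in WT and 0.317% in hda108. Genes encoded in the mitochondrion were above WT in 44 of 47 cases, with a median of 1.06, and those encoded in the plastid in 19 of 21, with a median of 0.56, and 0 of either were called as deposited. After rescaling 33 and 9 of them were called higher, against 14.7% of all genes. In post-meiotic anthers both medians were below 0 as deposited, at -0.15 and -0.37. The post-meiotic columns, which summed to 1069800 FPKM in WT and 701133 in hda108, were not rescaled. Whether the sign differs between stages on a common scale was therefore not tested. Meiosis genes had a median of 0.75 with 0 of 11 called, at low levels: PHS1, of homologous pairing, had 5.99 and 10.8 FPKM.

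**Figure D3:**
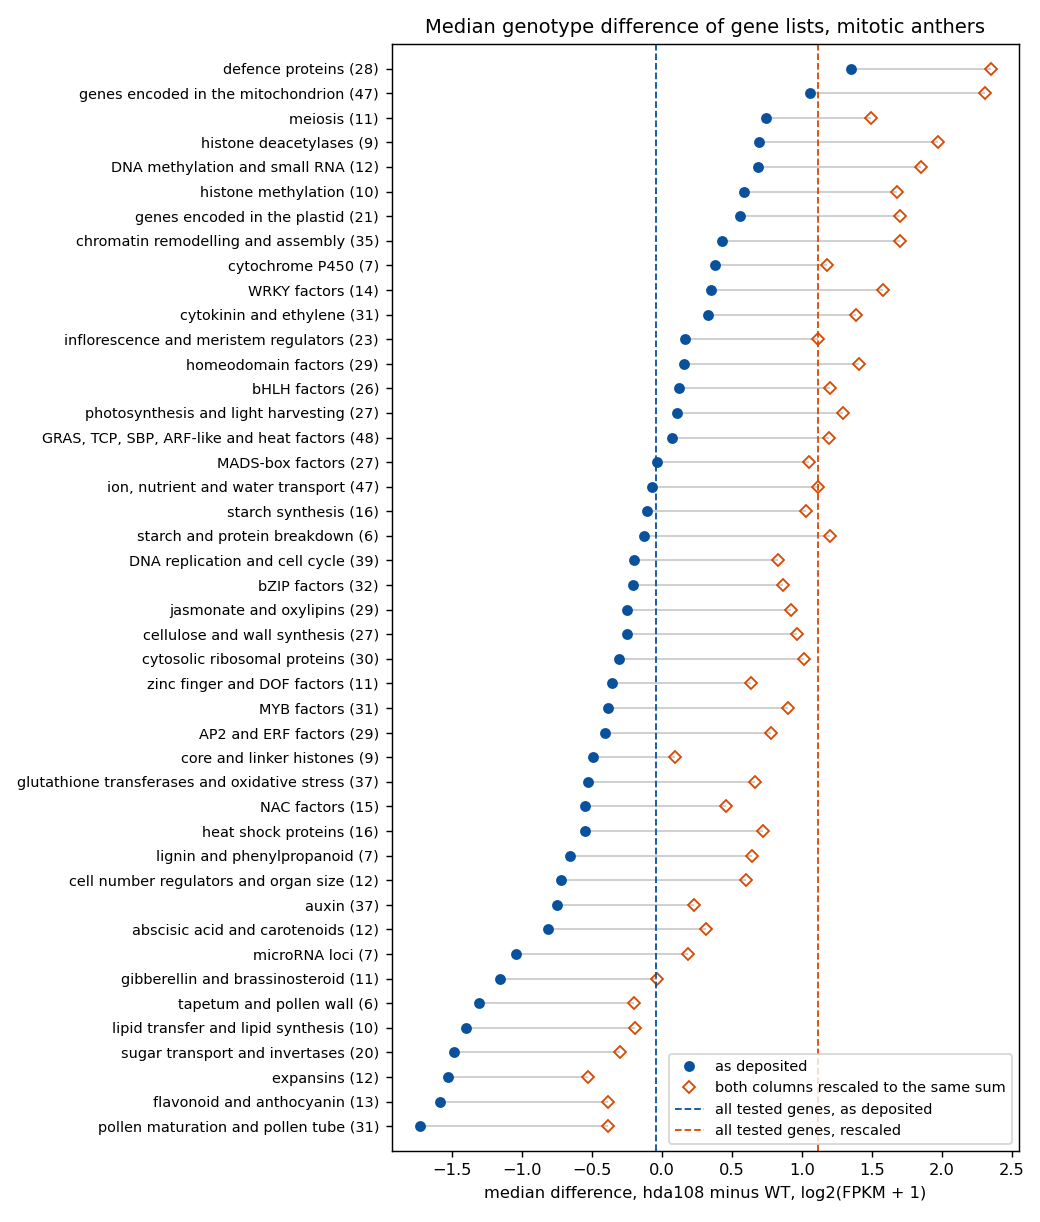
Median difference (hda108 minus WT, log2(FPKM + 1)) of gene lists with at least 5 tested genes, number tested in brackets, as deposited (filled circles) and after rescaling both columns to the same sum (open diamonds). Dashed lines are the medians of all tested genes, -0.04 and 1.11. Defence genes lie farthest to the right. Pollen genes lie farthest to the left as deposited, whereas expansins lie further left than pollen genes after rescaling.

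MicroRNA loci were mostly under the limit: 7 of 154 reached 1 FPKM. zma-MIR169k had 11.1 FPKM in WT but 0 listed in hda108, and zma-MIR169i had 114 and 17.2 FPKM. zma-MIR2118d, a locus of 148 bases, was listed at 0 in WT and had 6.59 FPKM in hda108.

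The share of lower genes grew with abundance. Part of this is set by the rule, since the pseudocount of 1 shrinks differences of low genes. A gene with a mean under 1 FPKM cannot reach 2, and 0 of 1140 such genes were called. With a pseudocount of 0.1, 2772 genes were lower in place of 1979, and 1024 higher in place of 371. Among 11384 genes with a mean of 1 to 10 FPKM over both columns, 3.36% were lower and 1.93% higher. At 10 to 100 FPKM the shares were 11.2% and 1.49%, at 100 to 1000 FPKM 41.4% and 1.51%, and among the 114 genes at 1000 FPKM or more 79.8% and 0.877%. Under both scalings the lower share still went from 0.791% to 3.0%, 17.1% and 27.2%. Median differences by class were 0.23, -0.27, -1.61 and -2.72. The 100 most abundant genes made up 33.0% of all FPKM in WT against 17.9% in hda108.

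**Figure D4:**
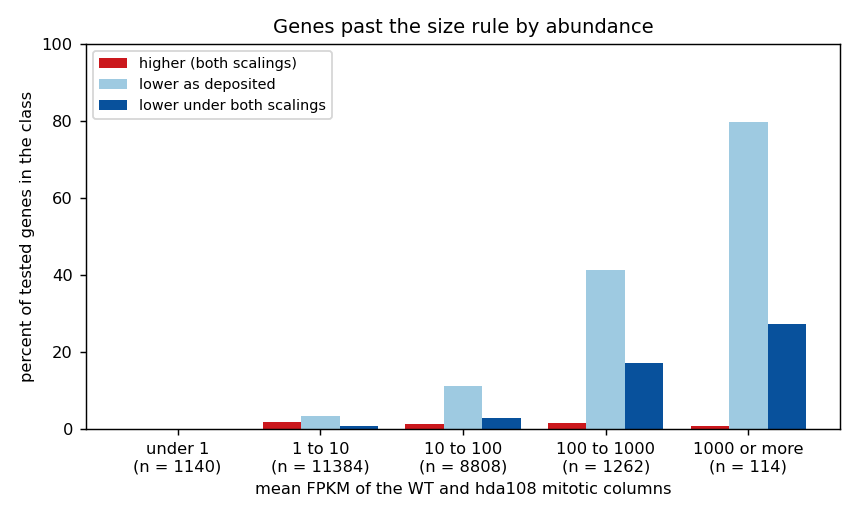
Percent of tested genes called higher (red), lower as deposited (light blue) and lower under both scalings (dark blue) in 5 classes of mean FPKM over the WT and hda108 mitotic columns. The lower share climbs from 3.36% at 1 to 10 FPKM to 79.8% at 1000 FPKM or more, and the higher share stays under 2%. Genes with a mean under 1 FPKM cannot reach the size rule.

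Most of the largest differences belong to genes without an informative name. GRMZM2G116520 (chromosome 10, 96691686 to 96692590) had the largest positive difference of genes with at least 5 FPKM, with 3.48 FPKM in WT against 298 in hda108, 85.6-fold. GRMZM2G181227 (chromosome 10, 19483613 to 19489654) had 1.91 and 138 FPKM, and GRMZM2G127087 (chromosome 10, 55612815 to 55765958) 0.236 and 44.2 FPKM. All 3 lie on chromosome 10. At the other end AC187262.4_FG007 (chromosome 1, 184732929 to 184733551) had 4093 and 14.5 FPKM, 282-fold lower, and GRMZM2G475702 (chromosome 4, 77507996 to 77510091) 316 and 1.496 FPKM. The most abundant RNA in WT, GRMZM2G364349, had 13715 and 802 FPKM. The most abundant in hda108 was the mitochondrial GRMZM5G807592, nearly equal at 6569 and 6675 FPKM, followed by GRMZM2G107839 at 1348 and 4395 FPKM.

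Chromosome 4, which carries HDA108, held a larger share of the extreme lower genes. Of the 183 genes with at least 5 FPKM that were lower by 4 log2 or more, 35 were on chromosome 4, 19.1%, which has 9.998% of the genes at that level. The other chromosomes held 3.83% to 13.1%. Of 16 genes with at least 5 FPKM in WT and listed at 0 in hda108, 10 were on chromosome 4, at starts from 61122833 to 180294644. GRMZM2G140774 (chromosome 4, 168149331 to 168150275) had 73.5 FPKM in WT, GRMZM2G495171 65.7 FPKM and AC194356.3_FG002 64.7 FPKM. Of these 10, 9 were listed at 0 in hda108 post-meiotic anthers too, and GRMZM2G111774 had 0.211 FPKM there. In the reverse direction 12 genes were listed at 0 in WT with at least 5 FPKM in hda108, 2 of them on chromosome 4. At the 4-fold rule the chromosomes differed less: 10.6% of chromosome 4 genes were lower against 8.71% overall.

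**Figure D5:**
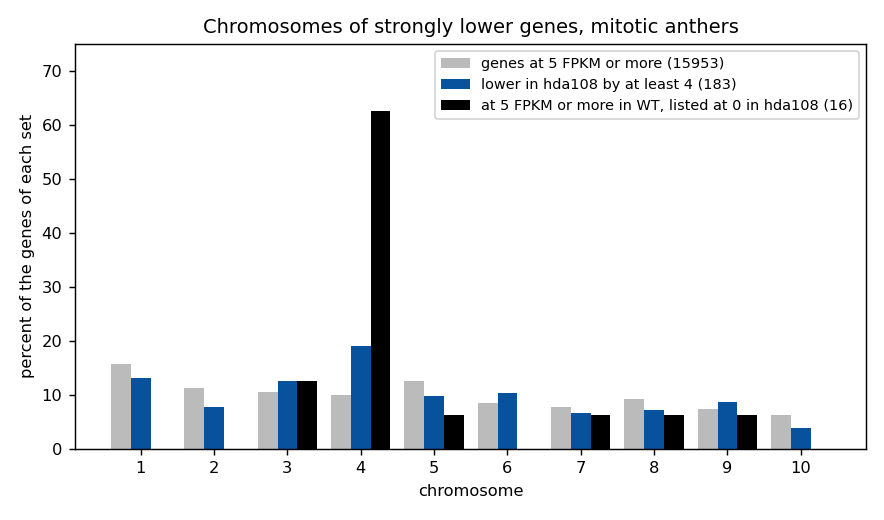
Percent of each set of genes by chromosome: 15953 genes with at least 5 FPKM (grey), the 183 of them lower in hda108 by at least 4 log2 (blue), and the 16 with at least 5 FPKM in WT and listed at 0 in hda108 (black). Chromosome 4 holds 9.998%, 19.1% and 62.5% of the sets.

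Called genes also adjoined each other. Of 366 higher genes on the 10 chromosomes, 43 (11.7%) had a higher gene as the next tested gene on either side, against 3.03% of the other genes. The values for lower genes under both scalings were 61 of 599 (10.2%) and 5.10%. On chromosome 6 (100409173 to 100741018), 4 consecutive tested genes were higher, among them GRMZM2G045378 with 2.29 and 40.3 FPKM and GRMZM2G164478 with 3.18 and 37.3 FPKM. On chromosome 5 (30327173 to 30611798), 5 consecutive genes were lower, led by GRMZM2G041424 with 57.7 and 2.38 FPKM. Neighbours that are copies of each other can share reads, so these runs are uncertain.

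Most of the mitotic differences had the same sign in post-meiotic anthers, which share no library with the mitotic ones. Of the 371 higher genes 360 were above WT there, with a median of 1.93, and 176 were called higher. Of the 601 lower genes 594 were below WT, with a median of -2.62, and 412 were called lower. All post-meiotic signs and calls are as deposited, since those columns, with sums of 1069800 FPKM in WT and 701133 in hda108, were not rescaled. Of all genes tested at the mitotic stage 47.0% were above WT and 52.8% below it in post-meiotic anthers. There 1.72% and 4.56% of tested genes were called higher and lower. Some named genes departed. see2b, a legumain-type protease gene (GRMZM2G093032), had 6.98 FPKM in WT against 56.1 in hda108 at the mitotic stage, against 17.0 and 13.7 FPKM after meiosis. expA4 had 68.6 and 5.89 FPKM at the mitotic stage but 83.2 and 66.4 FPKM after meiosis. HAK5 and dhn1 had larger positive differences at the mitotic stage, 4.64 and 3.71, than after meiosis, 1.88 and 1.57. chiA and plt1 had smaller ones, 2.89 and 2.49, against 6.94 and 5.63. f3h, of flavonoid synthesis, had 9.42 and 2.47 FPKM at the mitotic stage and 1.63 and 11.2 FPKM after meiosis. The differences between stages were not tested.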

How the data were processed

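Total RNA of 8 libraries was sequenced after ribosomal RNA depletion with a strand-specific kit, per the labels' protocols; 4 libraries are mitotic-stage. The authors deposited FPKM, with a single value for each gene and group, per the file headers. The build B73 RefGen_v3 and, without stated roles, Cuffdiff 2.2.1, Cufflinks, SAMtools, TopHat2 2.0.13, Trimmomatic 0.33 and CASAVA 1.8 are listed per the submitters' processing notes. How libraries were combined and groups scaled is, like the counts, not given in the sources used here, so depth is unknown and no interval or floor is given. Whether starts count from 0 or 1 is not stated.

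Differences are log2(FPKM + 1), pseudocount 1, for genes at 1 FPKM or more in either mitotic column. The planned limma test and its replicate steps could not be run on 1 value per group, so a difference of 2 replaced them, and no p-value is given. This scale understates the change of low genes. Rescaling brought each column to a sum of 1000000. Promoter motifs were not searched, since no sequence was used here.

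The members and the 46 lists were chosen with earlier results of these data known. Names come from RefSeq genes of Zm-B73-REFERENCE-NAM-5.0. They matched 19059 IDs, and the 521 with several matches were left unnamed. Lists were matched by symbol, so a member can share only a symbol with the intended gene. Named genes followed a rule: HDA108; the 15 largest positive and 15 largest negative named differences called under both scalings at 5 FPKM or more; the 3 largest each way of all genes; the 5 most abundant in each column; and up to 4 members per list, or 8 called under both scalings. Other genes are examples chosen after their values were seen. A named member of the pollen list is not reported here. Alternatives tried were other scalings, a pseudocount of 0.1, filters of 5 FPKM and none, and a difference of 1. Python 3.11.15, numpy 2.4.6, pandas 2.3.3 and matplotlib 3.10.9 were used, and the steps were tested on simulated data.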

Additional observations from a re-analysis of the deposited data

Results flagged for a closer look

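Genotype differences pointing in opposite directions at the 2 stages were found for 5 genes past the 4-fold rule at both; whether the stages differ was not tested. GRMZM5G873249 was listed at 0 in WT and had 17.9 FPKM in hda108 mitotic anthers, a difference of 4.24, and 13.1 FPKM in WT and 0 in hda108 post-meiotic anthers. GRMZM2G002815 differed by 3.21 at the mitotic stage, from 0 to 8.26 FPKM, and had 22.4 and 2.06 FPKM after meiosis. GRMZM2G410865 differed by 3.02, from 0.539 to 11.5 FPKM, and had 10.1 and 1.29 FPKM after meiosis. zma-MIR2118d differed by 2.92 at the mitotic stage and had 11.01 FPKM in WT and 0 in hda108 after meiosis. GRMZM2G051898 differed by -3.85, from 14.3 to 0.0615 FPKM, and after meiosis was listed at 0 in WT with 10.5 FPKM in hda108.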

How the results depend on the processing

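The median difference of all genes was 1.11 after rescaling to the same sum, 0.71 when genes at 1000 FPKM or more were left out of the sum, 0.32 at the same upper quartile, 0.17 with quantile normalization, -0.025 at the same median, -0.050 with a pseudocount of 0.1, -0.18 with a filter of 5 FPKM and 0 with no filter. Higher counts moved to 3343 (same sum), 1440 (same sum without abundant genes), 655 (upper quartile), 579 (quantile), 1024 (pseudocount 0.1) and 2541 (difference of 1). Lower counts moved to 601 (same sum), 1010 (same sum without abundant genes) and 5063 (difference of 1); they were 1427 at the upper quartile, 1367 with quantile normalization and 2772 with a pseudocount of 0.1. Leaving out chromosome 4, an alternative added after the data were seen, gave a median of -0.04 with 326 higher and 1738 lower genes. These settings change only the scale, the pseudocount or the genes counted, and no other cause was tested. Of 943 list and named genes, 139 were called as deposited, and 59 of them lost the call after rescaling to the same sum. Of the 139, 0 changed sign under any scaling, pseudocount or filter tried, which is no sign of robustness. A called gene differs at least 4-fold and the column sums 2.54-fold, so that rescaling could not reverse a sign. A filter, or a pseudocount shared by both columns, cannot reverse one either. Of 45 list medians 29 were below 0 as deposited, and 22 of those were above 0 after that rescaling. No paired analysis was possible because the columns hold 1 value per group, and leaving out a replicate could not be done for the same reason. Without counts, what depth limits cannot be given.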
